A study of Rattus norvegicus with 8 samples.

Results

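Bile acids, bilirubin conjugates, hormones and many drugs pass through the hepatocyte mainly from blood to bile. Carriers on the basolateral (blood-facing) membrane take them up, chiefly the sodium-dependent taurocholate carrier encoded by Slc10a1 (NTCP) and the sodium-independent organic anion transporting polypeptides encoded by the Slco genes. ATP-driven pumps on the canalicular (bile-facing) membrane then export them, with the bile salt export pump encoded by Abcb11 as the step that drives bile flow. A further set of pumps, among them the Abcc3 product (MRP3), works on the basolateral membrane and returns conjugates and bile acids to the blood.

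The 10 genes described here are the Slco genes, Slc10a1, Abcb11 and Abcc3, found by gene symbol among the 2462 genes of the authors' deposited table, and all 10 listed symbols had a line there. By membrane side and direction they comprise 5 basolateral uptake carriers (Slc10a1, Slco1a1, Slco1a4, Slco1b2 and Slco2b1), 1 canalicular exporter (Abcb11), 1 basolateral exporter (Abcc3) and 3 Slco genes not typical of hepatocyte bile acid uptake (Slco2a1, Slco3a1 and Slco5a1). RNA came from the liver of 8 wild type rats of the inbred strain Fischer 344 (F344), all 1 year old. One group of 4 rats ate an amino acid-defined diet with enough choline (CSAA) and served as the healthy controls. The other 4 ate its choline-deficient counterpart (CDAA), and their livers carried hepatocellular carcinoma. The labels give neither the sex of the rats nor whether tumour or surrounding tissue was taken.

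The comparison asks which transcripts differ between the carcinoma-bearing and the healthy-diet livers. Levels are the authors' group values in FPKM (fragments per length of transcript and size of library), 1 pooled value per diet without a value for each rat, so no spread between rats can be given. Each log2 fold change is CDAA over CSAA from the authors' DESeq2 fit with its standard error (SE). Every gene in the table has a corrected p-value of at most 0.01 in all 3 of the authors' programs (DESeq2, edgeR and Cufflinks). The presence of a gene there is therefore no result about it, and a gene outside it may have missed 1 test or not been tested. Mean normalised count divided by mean CPM, both from the authors' deposited table, puts a typical library at about 14100000 counted reads.

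Of the 10 transporter genes, 8 fell and 2 rose in the CDAA livers, where 42.9% of all genes in the authors' deposited table fell and 57.1% rose. All 5 uptake carriers and Abcb11 were among those that fell, with changes between -1.33 and -0.79 on the log2 scale over the 8, whereas Abcc3 rose by 4.17. The median of the 8 was -1.18, beside -1.08 for all 1055 lower genes of the authors' deposited table. Lower genes of that table were the more abundant in CSAA, with a median CSAA level of 42.4 FPKM against 1.02 FPKM for higher genes. The CSAA level is also the base of each fold, so part of this contrast is built in. Of the 8 transporters that fell, 7 lay above 42.4 FPKM in CSAA. By at least 2-fold, 7 of the 10 changed, and so did 75.1% of all genes in the authors' deposited table. The genes were chosen with these results known, and their count is a description.

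**Figure D1:**
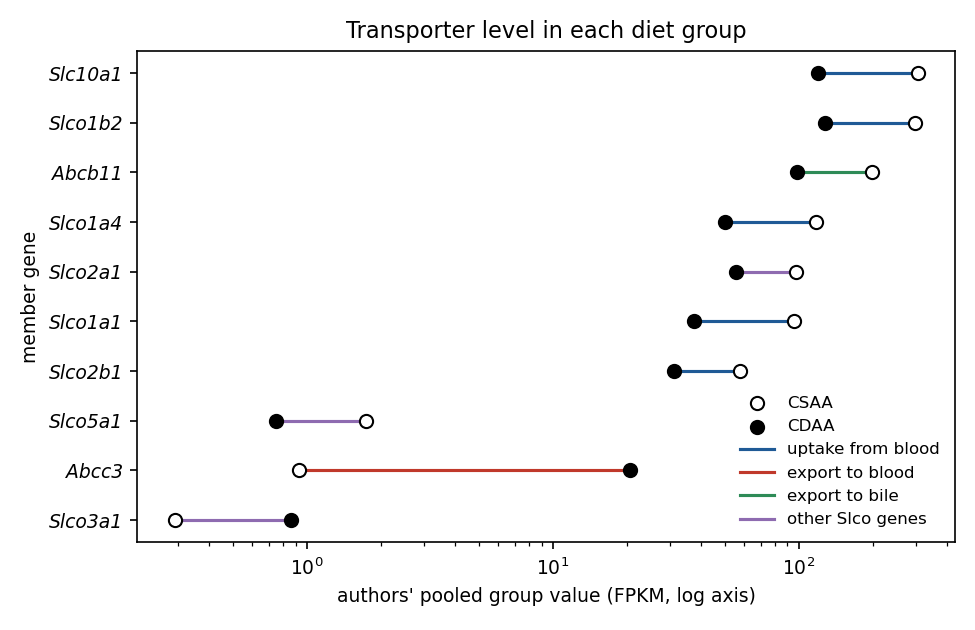
Level of the 10 transporter genes in each diet group, as the authors' pooled FPKM on a log axis; open points are CSAA, filled points CDAA, and the line colour gives the direction of transport. The filled point lies left of the open one for 8 genes, while Abcc3 moves from 0.927 to 20.6 FPKM and Slco3a1 from 0.290 to 0.857 FPKM.

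Slc10a1, the main sodium-dependent bile acid carrier (ENSRNOG00000005794; chromosome 6, 104617729 to 104631355, rn6), was by FPKM the most abundant of the 10 in the healthy-diet livers, with 304 FPKM under CSAA and 120.0 FPKM under CDAA by the authors' deposited table. The pooled CDAA level was thus 39.4% of that in CSAA. Its log2 fold change in the authors' deposited table was -1.32 ± 0.24 (SE), or 2.49-fold lower, with an adjusted p of 7.65e-07 from DESeq2. By CSAA level it ranked 122 of 2462 in the authors' deposited table.

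Slco1b2 encodes Oatp1b2, a carrier largely confined to the liver that takes up bile acids, conjugated bilirubin and several toxins. Slco1b2 (ENSRNOG00000030538; chromosome 4, 175814117 to 175881768, rn6) stood at 297 FPKM in CSAA against 128 FPKM in CDAA by the authors' deposited table. Its log2 fold change was -1.18 ± 0.32, the least certain of the 5 carriers, with an adjusted p of 0.00122 from the authors' DESeq2 fit in the deposited table. Per transcript length Slco1b2 and Slc10a1 were about level, yet by mean normalised count over all 8 rats Slco1b2 stood at 10524 and Slc10a1 at 5041 in the authors' deposited table, so the order of the pair depends on the scale.

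Slco1a1 and Slco1a4 encode Oatp1a1 and Oatp1a4, broad-range organic anion carriers; Oatp1a1 is more abundant in male than in female rat liver and Oatp1a4 also takes up digoxin. Slco1a1 (ENSRNOG00000036984; chromosome 4, 176158639 to 176231344, rn6) stood at 96.1 FPKM in CSAA against 37.4 FPKM in CDAA by the authors' deposited table. It had the steepest fall of the 10 genes, -1.33 ± 0.22 on the log2 scale (SE; adjusted p = 4.52e-08, DESeq2), and ranked 332 of the 1055 lower genes in the authors' deposited table. Slco1a4 (ENSRNOG00000047493; chromosome 4, 175969548 to 176026163, rn6) went from 117 to 50.1 FPKM and changed by -1.18 ± 0.23 on the log2 scale (adjusted p = 3.74e-06, DESeq2) in the authors' deposited table. The folds of these paralogs differed by less than the sum of their SEs.

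Slco2b1 encodes a carrier of steroid sulfates and many drugs that is also made outside the liver. Slco2b1 (ENSRNOG00000017976; chromosome 1, 164623598 to 164671577, rn6) was the least abundant of the 5 uptake genes and stood at 57.5 FPKM in CSAA against 31.1 FPKM in CDAA by the authors' deposited table. The fall of Slco2b1 was the smallest of the 5, -0.90 ± 0.17 on the log2 scale (SE; adjusted p = 1.02e-06, DESeq2), in the authors' deposited table.

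**Figure D2:**
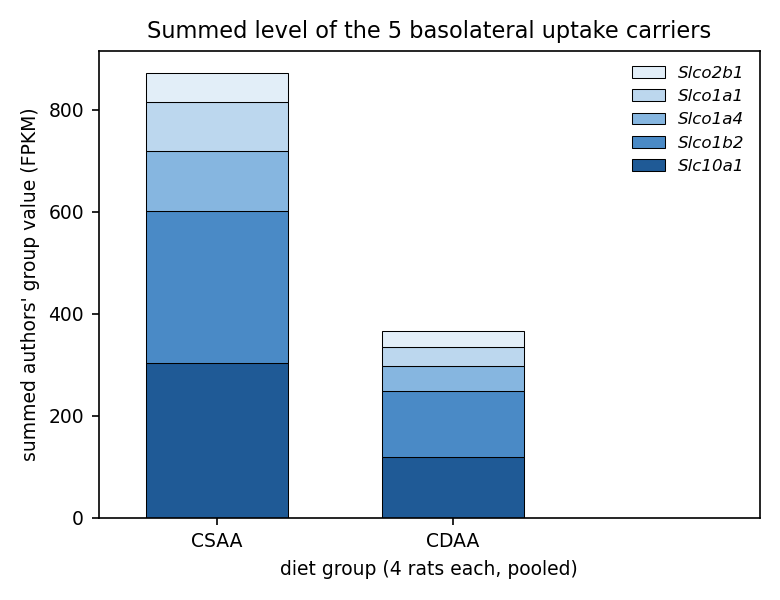
Summed group FPKM of the 5 basolateral uptake carriers in each diet group, stacked by gene from Slc10a1 at the bottom to Slco2b1 at the top. The bar falls from 873 to 367 FPKM while Slc10a1 and Slco1b2 together keep 69.0% of it in CSAA and 67.7% in CDAA.

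Summed over the 5 uptake genes of the authors' deposited table, the level was 873 FPKM in CSAA and 367 FPKM in CDAA, or 42.0% of the healthy-diet level. Slc10a1 and Slco1b2 together held 69.0% of that sum in CSAA and 67.7% in CDAA, computed from the authors' deposited table. The share of Slco2b1 went from 6.59% to 8.49% and that of Slc10a1 from 34.9% to 32.7% of the sum. These shares rest on pooled values and carry no error. In bulk liver RNA, fewer hepatocytes and less RNA per hepatocyte cannot be told apart. Of 10 hepatocyte markers, the authors' deposited table held 4, and each of them was lower, from -1.19 to -0.76 on the log2 scale, with a summed level of 16527 FPKM under CSAA and 8013 FPKM under CDAA. The most abundant were transthyretin, Ttr (13443 to 6364 FPKM), and apolipoprotein H, Apoh (2787 to 1498 FPKM), in the authors' deposited table, and none of the 4 was at 0. Alb, Apoa1, Serpina1, Tf, Fgb and Cps1 were not among its genes. The part of hepatocyte number in the falls of the carriers and of Abcb11 was not tested.

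Slco1b2, Slco1a4 and Slco1a1 lie in this order within 417 kb of chromosome 4 in rn6. On the whole of chromosome 4 RefSeq lists 7 Slco genes. The other 4 (Slco1c1, Slco1a3, Slco1a6 and Slco1a5) come before or after these 3 in its order and were not in the authors' deposited table. The promoter windows of Slco1b2, Slco1a4 and Slco1a1, from 250 bases before to 50 after the RefSeq start in build GRCr8, are shown for these 3 neighbours, which all fell. Those of Slco1a1 and Slco1a4 were chosen after all windows had been read. RefSeq windows were found for 7 of the 10 genes, all but Abcb11, Abcc3 and Slco5a1. The windows of the paralogs Slco1a1 (chr4:176681943-176682242, minus strand) and Slco1a4 (chr4:176495797-176496096, minus strand) are given first, read 5′ to 3′ along the gene, with capitals for runs of at least 6 bases that are identical in their global alignment.
Slco1a1: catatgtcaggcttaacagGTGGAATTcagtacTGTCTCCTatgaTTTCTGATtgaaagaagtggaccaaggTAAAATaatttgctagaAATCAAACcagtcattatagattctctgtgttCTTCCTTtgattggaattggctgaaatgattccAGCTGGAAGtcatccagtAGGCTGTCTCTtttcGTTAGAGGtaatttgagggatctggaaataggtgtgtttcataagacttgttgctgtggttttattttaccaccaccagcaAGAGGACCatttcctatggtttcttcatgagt
Slco1a4: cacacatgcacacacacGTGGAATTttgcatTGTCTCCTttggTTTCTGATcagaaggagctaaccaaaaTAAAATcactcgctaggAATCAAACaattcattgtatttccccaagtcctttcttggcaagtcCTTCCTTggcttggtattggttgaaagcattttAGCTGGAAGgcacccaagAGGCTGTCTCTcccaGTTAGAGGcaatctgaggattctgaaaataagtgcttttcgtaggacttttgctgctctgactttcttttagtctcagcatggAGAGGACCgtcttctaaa
These windows were identical at 206 of 317 aligned columns, or 65.0%, whereas the other 20 pairs among the 7 windows lay between 39.9% and 48.3%. The longest identical run was 11 bases.

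In the window of Slco1b2 (chr4:176282334-176282633, GRCr8, plus strand), capitals mark the motif found.
Slco1b2: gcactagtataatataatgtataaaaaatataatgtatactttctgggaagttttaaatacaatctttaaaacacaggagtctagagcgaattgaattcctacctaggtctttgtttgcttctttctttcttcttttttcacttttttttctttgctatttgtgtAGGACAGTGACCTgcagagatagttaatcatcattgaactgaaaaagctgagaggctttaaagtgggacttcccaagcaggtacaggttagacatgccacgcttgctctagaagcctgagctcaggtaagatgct
An inverted repeat of AGGTCA with 1 base between, the arrangement bound by the bile acid receptor FXR, was searched on both strands and found with 1 mismatch in the Slco1b2 window, 85 to 73 bases before the start, and in no other of the 7 windows. With up to 2 mismatches in the 12 fixed letters this motif is in 1.51% of all 33469 RefSeq windows. The direct repeat of AGGTCA with 1 base between, bound by HNF4A, allowed the same 2 mismatches (3.77% of all windows), and TGACNNNGC, a core of sites bound by NRF2, was searched without mismatch (12.1%); neither had a match in the 7 windows on either strand. The windows of Slc10a1, Slco1a1, Slco1a4 and Slco1b2 held 1 to 4 CpG dinucleotides, that of Slco2b1 held 9, and those of Slco2a1 and Slco3a1 held 26 and 38, with a median of 7 over all windows.

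Abcb11, the canalicular pump through which conjugated bile acids enter bile (ENSRNOG00000050860; chromosome 3, 55480023 to 55587946, rn6), stood at 198 FPKM in CSAA against 98.5 FPKM in CDAA by the authors' deposited table. The log2 fold change was -0.996 ± 0.18 (SE; 1.99-fold, adjusted p = 4.30e-07, DESeq2), just short of 2-fold, and the authors' edgeR and Cufflinks columns of the deposited table placed it just past, at -1.03 and -1.01. By mean normalised count, 11724 over all 8 rats, Abcb11 was the most heavily read of the 10 genes in the authors' deposited table. The summed FPKM of the 5 uptake genes was 4.40 times that of Abcb11 in CSAA and 3.72 times in CDAA. Of the 12 genes in the list for canalicular transport, Abcb11 and Tmem30a were in the authors' deposited table and both fell. Of all genes there, 42.9% fell. Tmem30a, a subunit of lipid flippases, went from 93.9 to 55.4 FPKM (log2 change -0.76 ± 0.24; adjusted p = 0.00720, DESeq2) in the authors' deposited table. The other 10, among them the conjugate pump Abcc2, the phospholipid translocator Abcb4 and the sterol transporters Abcg5 and Abcg8, were not among its genes.

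Abcc3 encodes MRP3, which exports glucuronides and bile acids across the basolateral membrane and is known to be scarce in normal rat liver and to increase in cholestasis. Abcc3 (ENSRNOG00000002948; chromosome 10, 82047862 to 82117109, rn6) went from 0.927 FPKM (CSAA) up to 20.6 FPKM (CDAA) in the authors' deposited table. Its log2 fold change was 4.17 ± 0.33 (SE), or 18.0-fold with 14.3 to 22.6-fold at 1 SE to either side, and the adjusted p was 1.68e-33 (DESeq2) in the authors' deposited table. This was rank 42 among the 1407 genes that rose, and by level Abcc3 moved from rank 1790 in CSAA to rank 656 in CDAA, of 2462 in the authors' deposited table. The FPKM of Abcb11 was 214 times that of Abcc3 in CSAA and 4.78 times in CDAA.

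**Figure D3:**
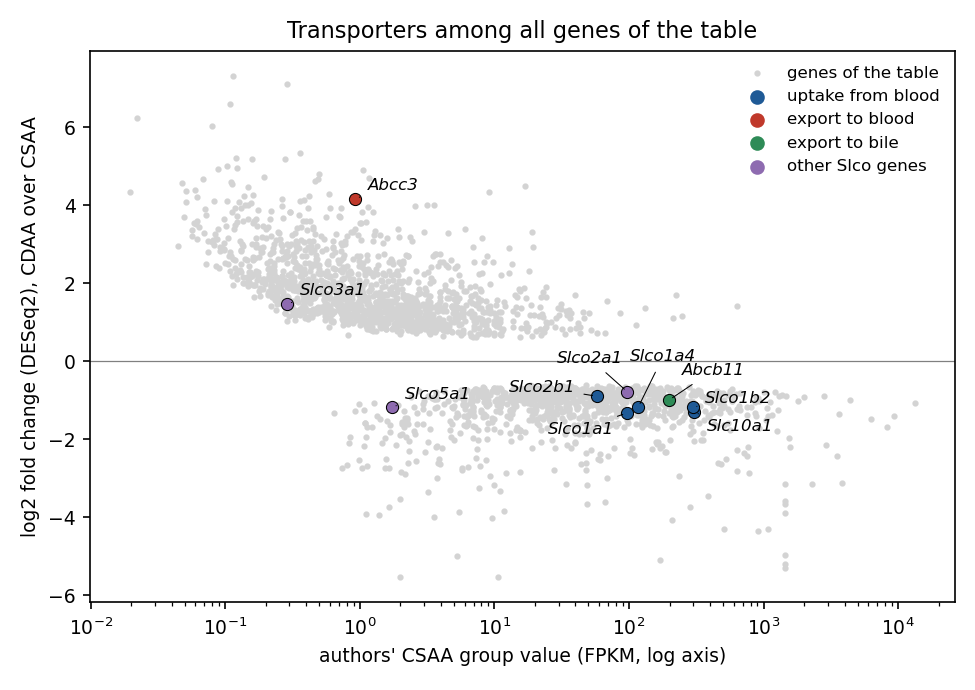
DESeq2 log2 fold change against the CSAA level (FPKM, log axis) for the genes of the authors' deposited table, with the 10 transporters coloured by direction of transport; the 17 genes listed at 0 in CSAA are not drawn. The band around 0 is empty because the table is selected. The uptake carriers and Abcb11 sit among the abundant genes that fell, and Abcc3 lies at 0.927 FPKM and a log2 fold change of 4.17.

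Bile duct cells also make Abcc3. Of 9 bile duct markers, the authors' deposited table held 7, and each of them rose, by 1.85 to 5.003 on the log2 scale, with a summed level of 10.4 FPKM under CSAA and 74.8 FPKM under CDAA. Epcam, an epithelial adhesion gene, went from 7.88 to 29.6 FPKM and the keratin gene Krt19 from 0.995 to 14.7 FPKM by the authors' deposited table, and none of the 7 was at 0. Krt7 and Cldn4 were not among its genes. Like the other marker sums given here, this summed level covers only genes selected for a change and is no measure of cell content. The part of bile duct cells in the rise of Abcc3 was not tested.

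In the list for basolateral export, 4 of 7 genes were in the authors' deposited table, and 3 rose and 1 fell. Of all genes there, 57.1% rose. Abcc4 encodes MRP4, which exports bile acids together with glutathione, and went from 1.73 to 11.3 FPKM (log2 change 2.56 ± 0.30; adjusted p = 3.71e-16, DESeq2) in the authors' deposited table. Abcc1, a pump for glutathione conjugates that is low in hepatocytes, went from 0.478 to 1.64 FPKM (log2 change 1.73 ± 0.25; adjusted p = 2.28e-10, DESeq2) in the authors' deposited table. Abcc6, known for its role in ATP release from hepatocytes and in preventing calcification, fell from 124 to 37.4 FPKM (log2 change -1.68 ± 0.28; adjusted p = 2.00e-08, DESeq2) in the authors' deposited table. It was the most abundant of the 4 in both groups and is not known as a bile acid exporter. The export genes Slc51a, Slc51b and Abcc5 were not in the authors' deposited table.

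The uptake list held 1 gene beyond the members, and it fell too, so each of its 6 genes was lower in CDAA by the authors' deposited table. Of all genes there, 42.9% were lower. Slc22a7, the organic anion carrier OAT2, went from 30.6 to 14.8 FPKM (log2 change -1.05 ± 0.20; adjusted p = 8.34e-07, DESeq2) in the authors' deposited table. Of 6 other Slc10 genes, 1 was in the authors' deposited table: Slc10a2, the apical sodium-dependent bile acid carrier of ileum and bile duct cells, rose from 1.86 to 4.40 FPKM (log2 change 1.27 ± 0.26; adjusted p = 1.25e-05, DESeq2). Its rise stood beside that of the bile duct markers given above, and the part of bile duct cells in it was not tested.

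**Figure D4:**
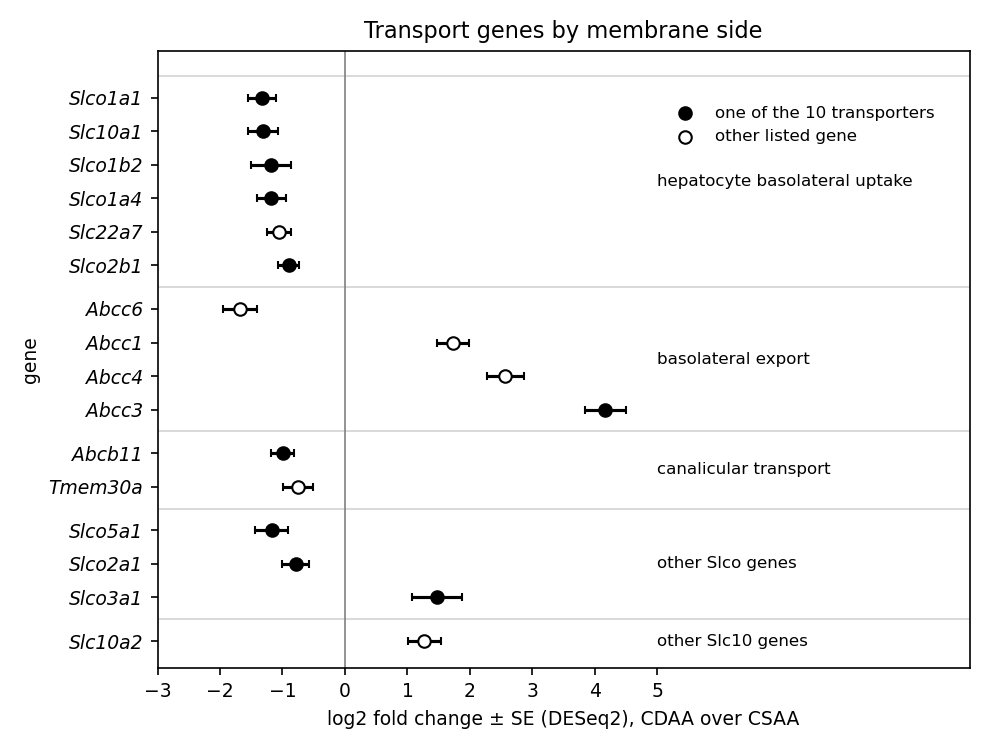
DESeq2 log2 fold change with its SE for every gene of the transport lists that the authors' deposited table holds, grouped by membrane side; filled points are the 10 transporters and open points other listed genes. All 6 uptake genes lie left of 0, and 3 of the 4 basolateral export genes lie right of it.

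Among the remaining Slco genes, Slco2a1 was abundant and fell, and Slco5a1 and Slco3a1 were scarce and moved in opposite directions. Slco2a1 encodes the prostaglandin transporter, which carries prostaglandins out of the extracellular space and is known from endothelial cells. Slco2a1 (ENSRNOG00000009005; chromosome 8, 111495330 to 111577833, rn6) went from 97.4 to 55.6 FPKM and changed by -0.79 ± 0.21 on the log2 scale (adjusted p = 0.00108, DESeq2), the smallest change of the 10 in the authors' deposited table. Of 12 endothelial markers, 3 were in the authors' deposited table, with a summed level of 27.6 FPKM under CSAA and 23.0 FPKM under CDAA. The receptor gene Kdr was lower (24.0 to 12.5 FPKM), the von Willebrand factor gene Vwf higher (3.24 to 7.53 FPKM) and Cd34 higher (0.418 to 3.03 FPKM) in the authors' deposited table, and none was at 0. Their part in the fall of Slco2a1 was not tested.

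Slco5a1 (ENSRNOG00000008966; chromosome 5, 5866896 to 5989667, rn6) stood at 1.73 FPKM in CSAA against 0.752 FPKM in CDAA by the authors' deposited table, a log2 fold change of -1.17 ± 0.27 (adjusted p = 8.72e-05, DESeq2). Its fold lay within the range of the uptake carriers, although its FPKM was far below theirs. Slco3a1, a widely expressed gene whose product carries prostaglandins and thyroid hormone, was the scarcest of the 10 in CSAA and by mean normalised count (ENSRNOG00000032798; chromosome 1, 135790809 to 136073540, rn6). It went from 0.290 to 0.857 FPKM, with a mean normalised count of 22.1 over all 8 rats, and its log2 fold change of 1.47 ± 0.40 (adjusted p = 0.00111, DESeq2) had the largest SE of the 10 in the authors' deposited table. The other 8 of the 11 Slco genes in this list were not in the authors' deposited table. Macrophage, stellate cell and lymphocyte markers in the authors' deposited table rose beside Slco3a1, with no faller and none at 0. The other markers of these lists were not in that table, and the endothelial marker Kdr, given above, was lower. Those that rose were 4 of 10 macrophage markers (summed level 15.1 FPKM in CSAA and 83.1 FPKM in CDAA), 6 of 10 stellate cell markers (18.6 and 100.3 FPKM) and 2 of 10 lymphocyte markers (4.71 and 14.2 FPKM). The most abundant in CDAA were Gpnmb (6.95 to 58.4 FPKM) and Cd68 (4.45 to 14.2 FPKM), Pdgfra (5.24 to 50.9 FPKM) and Dcn (4.29 to 18.6 FPKM), and Ptprc (3.96 to 12.1 FPKM) and Cd8a (0.750 to 2.09 FPKM) in the authors' deposited table. For Pdgfra the Cufflinks log2 ratio was 3.28 and the DESeq2 fold 1.08 in the authors' deposited table, so its FPKM weighs on the stellate sum. The part of these cells in the rise of Slco3a1 was not tested.

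**Figure D5:**
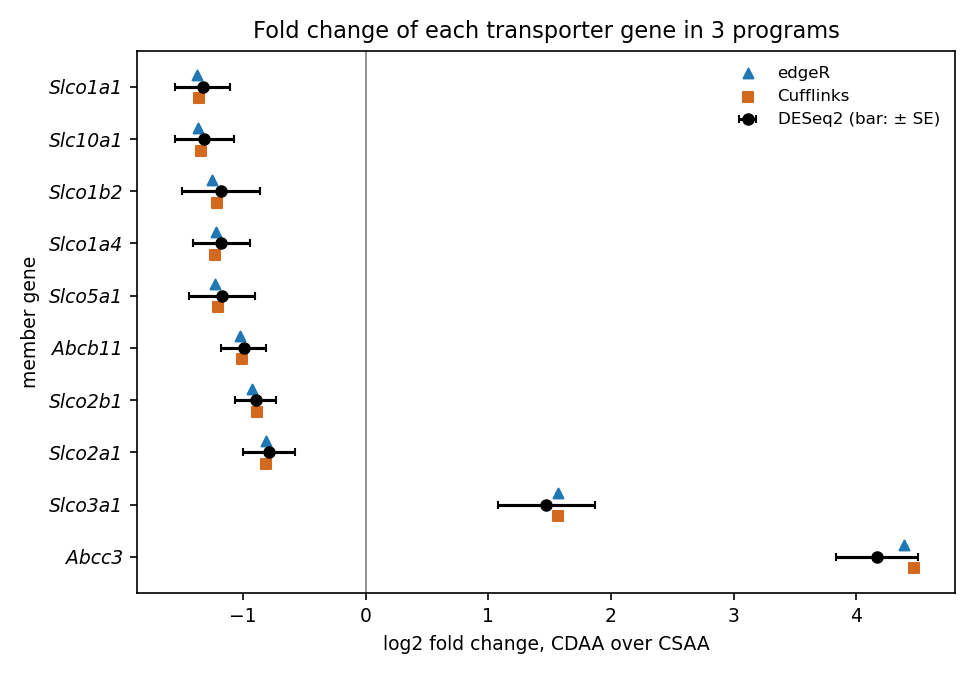
Log2 fold change, CDAA over CSAA, of each transporter gene in the authors' 3 programs; circles with bars are DESeq2 ± SE, triangles edgeR and squares Cufflinks. The 3 programs lie within 1 SE of each other for every gene, and no gene changes side.

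By level in CSAA the order was Slc10a1, Slco1b2, Abcb11, Slco1a4, Slco2a1, Slco1a1, Slco2b1, Slco5a1, Abcc3 and Slco3a1. In CDAA, Slco1b2 came before Slc10a1 and Slco2a1 before Slco1a4, Abcc3 stood next after Slco2b1, and Slco5a1 was last. The pooled values carry no spread between rats, so neighbours in these orders were not tested for a difference.

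Ordered by fold from Slco1a1 to Slco2a1, no pair of neighbours among the 8 genes that fell differed by more than the sum of their SEs. The ends of that order, Slco1a1 and Slco2a1, differed by 0.54 on the log2 scale against a sum of SEs of 0.44. Slco3a1 lay 2.26 above Slco2a1, and Abcc3 lay 2.70 above Slco3a1, both beyond the sums of their SEs, 0.61 and 0.73. Each of the 10 genes was alone in its Cufflinks locus among the listed genes. Reads of the paralogs Slco1a1 and Slco1a4 may still be shared with each other or with the near copies beside them, in a way that the sources used here do not state.

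Of 23 genes in the list of nuclear receptors, liver transcription factors and bile acid signalling, 8 were in the authors' deposited table, and 7 fell and 1 rose. Of all genes in that table, 42.9% fell and 57.1% rose. Nr1h4 encodes FXR, the bile acid receptor that induces Abcb11, and went from 63.5 to 22.8 FPKM (log2 change -1.48 ± 0.14) in the authors' deposited table. Its partner Rxra went from 125 to 64.1 FPKM (log2 change -0.93 ± 0.26) in the authors' deposited table. Hnf4a (179 to 102 FPKM; log2 change -0.76 ± 0.19), Foxa2 (11.2 to 6.89 FPKM; log2 change -0.71 ± 0.19) and Nr5a2 (20.3 to 10.4 FPKM; log2 change -0.98 ± 0.18), further liver transcription factors, fell too in the authors' deposited table. The growth hormone receptor gene Ghr (509 to 226 FPKM; log2 change -0.99 ± 0.23) and Stat5b, which acts downstream of it (20.9 to 11.1 FPKM; log2 change -0.93 ± 0.11), were lower in the authors' deposited table. The one riser was S1pr2, a sphingosine-1-phosphate receptor that also responds to conjugated bile acids, from 1.67 to 6.18 FPKM (log2 change 1.75 ± 0.35) in the authors' deposited table. The highest adjusted p of these 8 genes was 0.00234 (DESeq2, authors' deposited table), for Rxra. Nr0b2, Nr1i2, Nr1i3, Ppara and Nfe2l2 were not among its genes. The 4 hepatocyte markers given above, Hnf4a among them, also fell. The part of hepatocyte number in these falls, and of these regulators in the changes of the transporters, was not tested.

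Of 11 genes for membrane placement and canaliculus structure, 5 were in the authors' deposited table, 3 higher and 2 lower, where 57.1% of all genes were higher. Pdzk1, a scaffold that in mice holds Oatp1a1 at the membrane, fell from 27.5 to 13.8 FPKM (log2 change -0.97 ± 0.19) in the authors' deposited table. Rdx, the radixin gene that in mice is needed to keep the conjugate pump Abcc2 in place, fell from 85.5 to 44.0 FPKM (log2 change -0.93 ± 0.15) there. Ezr, the ezrin gene of the same family as radixin and typical of bile duct epithelium, rose from 4.53 to 24.1 FPKM (log2 change 2.40 ± 0.32) in the authors' deposited table. Msn, the third gene of that family, found in leukocytes and endothelium, rose from 11.4 to 19.2 FPKM (log2 change 0.78 ± 0.21) in the authors' deposited table. Stx3, an apical vesicle fusion gene (0.988 to 3.54 FPKM; log2 change 1.77 ± 0.19), also rose in the authors' deposited table. The markers of bile duct, macrophage, endothelial and lymphoid cells that stood beside these changes are given above, and their part in them was not tested.

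Within 500 kb of the starts of the transporter loci the authors' deposited table held 12 further genes, 7 higher and 5 lower in CDAA. Of all genes in that table, 57.1% were higher. The direction of the transporter beside them was shared by 6 of the 12. Beside Slc10a1 both neighbours fell, Smoc1 (log2 change -1.64 ± 0.22) and Plekhd1 (log2 change -3.52 ± 0.64), in the authors' deposited table. Beside Abcb11, which fell, 3 neighbours rose in the authors' deposited table: Spc25 (log2 change 2.17 ± 0.52), a kinetochore gene, Nostrin (log2 change 0.95 ± 0.16), an endothelial gene, and the dehydrogenase gene Dhrs9 (log2 change 2.59 ± 0.51). The gene listed only as AABR07052458.1 fell (log2 change -1.64 ± 0.40) in the authors' deposited table. Sulf1, a sulfatase gene 133 kb from the start of Slco5a1, rose (log2 change 2.52 ± 0.36) in the authors' deposited table, opposite to Slco5a1. Acsf2 beside Abcc3 rose (log2 change 1.67 ± 0.18) and RGD1310507 beside Slco2a1 fell (log2 change -1.19 ± 0.16) in the authors' deposited table. Near Slco2b1, Serpinh1 (log2 change 1.44 ± 0.29) and Gdpd5 (log2 change 2.05 ± 0.36) rose and Olr36 fell (log2 change -1.97 ± 0.40), and Slco3a1 had no neighbour, in the authors' deposited table.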

How the data were processed

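Liver RNA of 8 rats was extracted with Trizol and made into libraries with an Illumina TruSeq kit, per the labels' protocols. FastQC, TopHat2, Cufflinks, DESeq2, edgeR and build rn6 are named in the submitters' processing notes. Their versions, the read counter, the annotation and the use of strand are not stated in the sources at hand. Per the file headers, the authors deposited from DESeq2 a mean normalised count (a signal), p-values, a Wald score and a log2 fold change and its SE. Per the file headers, the authors' edgeR columns are p-values, a mean log2 CPM and a log2 fold change. The authors' Cufflinks columns are 1 pooled value per diet, their log2 ratio, a score and q-values, per the file headers. The authors pooled the rats of a diet in those values, read here as FPKM, the unit in which Cufflinks writes them, since the header names none. Direction was set from them: the deposited log2 ratio equalled log2 of CDAA over CSAA within 0.001 for all 2440 finite lines. The table is selected at 0.01 in each program, which tends to overstate small changes, and no gene in it changed by less than 0.60 on the log2 scale.

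Without values for each rat, the planned description was used, with no test across rats; the p-values printed are the authors' own. Sums, shares, ranks and neighbour distances were computed with Python 3.11.15, pandas 2.3.3 and numpy 2.4.6, and drawn with matplotlib 3.10.9; windows were aligned with Biopython 1.88. Named genes are all 10 transporters, every reported list gene in the table, the 2 most abundant markers of each cell type (all 3 for endothelium) and neighbours within 500 kb. Slco1a2 was dropped as a RefSeq synonym of Slco1a4. Members and lists were chosen with earlier results of these data known. Promoter windows and gene order come from RefSeq, build GRCr8, and the motif scan was tested on simulated data. The windows of Slco1a1 and Slco1a4 were chosen after all had been read. A few listed genes and 1 motif are not reported here, for a reason unrelated to their values; the list counts leave them out and so cover the rest of each list only. Proteins were not analysed here.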

Additional observations from a re-analysis of the deposited data

How the results depend on the processing

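The counts of 8 lower and 2 higher transporters were the same with the authors' edgeR and Cufflinks columns, and all 20 single folds had the DESeq2 direction. Their side of 0.01 was fixed by the selection of the table. The 3 programs describe the same 8 rats, so the shared direction is no independent check. Asking for at least 2-fold with DESeq2 left 5 lower genes, without Abcb11, Slco2b1 and Slco2a1. Asking for at least 1 FPKM in the higher group left 1 higher gene, Abcc3. The number changed at least 2-fold was 7 with DESeq2, beside 75.1% of all genes in the authors' deposited table. It was 8 with edgeR or Cufflinks and 6 with at least 1 FPKM. Shares of all genes were not computed for these settings, nor for the 5 lower genes and the 1 higher gene above. Those counts are therefore descriptions only. At a 1.5-fold threshold all 10 passed, but so did every gene of the authors' deposited table, whose smallest log2 change was 0.60. That count was therefore fixed by the selection. Without Slc10a1, the carrier with the highest CSAA FPKM, the uptake sum in CDAA was 43.4% of CSAA. No paired analysis was possible because the authors' table holds pooled group values and no column for each rat; leaving out each rat could not be run for the same reason. Slco3a1, at a mean normalised count of 22.1, is the transporter whose depth limits it most.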

Other observations

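The Abc family of ATP-driven transporters, bile acid pumps included, went both ways. By symbol, a rule chosen after the values were seen, 14 Abc genes were in the authors' deposited table, of 53 protein-coding ones in RefSeq, with 8 lower and 6 higher in CDAA. Of all genes in that table, 42.9% were lower and 57.1% higher. The share of all RefSeq genes that it holds was not computed, so these counts are a description. The peroxisomal fatty acid transporter gene Abcd3 was lower (129.8 to 78.7 FPKM; log2 change -0.72 ± 0.23, SE), while its relative Abcd2 rose (0.112 FPKM, then 1.92 FPKM; log2 change 3.83 ± 0.35), by the authors' deposited table. The lipid transporter genes Abca6 (log2 change -0.89 ± 0.16), Abca8a (log2 change -0.82 ± 0.08) and Abca9 (log2 change -1.38 ± 0.18) and the mitochondrial Abcb10 (log2 change -0.93 ± 0.15) were lower too in the authors' deposited table. The sulfonylurea receptor genes moved apart, Abcc8 from 1.56 to 0.232 FPKM (log2 change -2.51 ± 0.27) and Abcc9, typical of vascular muscle, from 3.64 to 6.40 FPKM (log2 change 0.74 ± 0.17), in the authors' deposited table. The cholesterol exporter gene Abcg1, abundant in macrophages, rose from 2.19 FPKM to 6.07 FPKM (log2 change 1.498 ± 0.19) in the authors' deposited table, beside the macrophage markers given earlier; their part in it was not tested.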
